A study of Mus musculus with 12 samples.

Results

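The enzymes that make and clear diacylglycerol, the membrane lipid that activates protein kinase C, were followed across all 4 groups of macrophages. They were taken by symbol from the deposited count table: 5 genes of the phospholipase C family (Plcg1, Plcg2, Plcb2, Plcb3 and Plcl2), 2 lipins (Lpin1 and Lpin2) and 3 diacylglycerol kinases (Dgka, Dgkd and Dgkz). All 10 were found among the 12339 genes of the table, and the low-count filter removed none of them. Single libraries held between 98 reads of Plcg1 and 5084 reads of Dgkz for these genes. In GRCm38.p6 Plcg1 (chr2:160731310-160775760), Plcb2 and Dgkz lie on chromosome 2, Dgkd lies on chromosome 1 (chr1:87853264-87945177), and Plcl2 and Lpin2 (chr17:71183532-71249818) share chromosome 17 with Prkce (chr17:86167785-86657919).

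Macrophages drawn into the mouse peritoneum with thioglycolate were compared between wild type (WT) and meKO animals, on chow or on a high-fat "Western" diet (HFD), by RNA sequencing. From the title of the series meKO is taken to mean a myeloid knockout of Prkce, the gene of protein kinase C epsilon; the labels name neither the strain, the recombinase line nor the deleted exons. All 4 groups, the chow controls included, had been injected at 8 weeks of age with AAV8PCSK9, a virus that takes the LDL receptor off hepatocytes, and cells were collected 4 weeks later. Each combination of genotype and diet had 3 libraries, with totals of 25844958 to 37282772 counts, where the labels describe 8 animals per genotype; the libraries of a group are named by number, and the p-values measure the spread between these libraries, which may be technical.

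Phospholipases C cut membrane phosphoinositides into diacylglycerol and inositol trisphosphate after a receptor is engaged, and diacylglycerol then recruits protein kinases C, the epsilon isoform among them, to the membrane. Diacylglycerol kinases end that signal by phosphorylating diacylglycerol to phosphatidate. Lipins run the opposite reaction on phosphatidate at the endoplasmic reticulum, where the diacylglycerol they form feeds triglyceride and phospholipid synthesis.

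Levels are given as CPM (counts scaled to library size, with TMM factors), and a gene was called when its edgeR quasi-likelihood adjusted p, taken over all 12339 genes, was under 0.05. Prkce, the targeted gene, ran from 2.01 to 4.44 CPM in the 6 WT libraries and from 0.95 to 1.78 CPM in the 6 meKO libraries. These ranges did not overlap, and the difference on the log2 scale was -1.14 (exact two-sided permutation test over 924 splits, p = 0.00216). It was -0.91 after correction for transcript length and GC content, and -0.86 without WT chow 1 and 2, which stood apart from the other libraries (exact permutation test over 210 splits, p = 0.00952). In the fit across all genes Prkce was not called on chow (-1.47, edgeR adjusted p = 0.0794; -0.82 without WT chow 1 and 2) or on HFD (-0.80, 0.989), while DESeq2 called it on chow (adjusted p = 0.00167). The labels do not say where the deletion lies, so reads outside it would remain. In WT chow 1 and 2 the deviation from the mean of all libraries followed transcript length across genes (Spearman's rho 0.6 and 0.65), against -0.43 to 0.12 in the other 10. Every HFD library had a negative value, from -0.43 to -0.11, and the remaining chow libraries ran from -0.19 to 0.12. Leaving out WT chow 1 and 2 may therefore not take all of the length trend out of the diet comparison. The transcripts of the 10 genes are 2834 to 5695 bases long, against a median of 3367. The main results are therefore given also after a loess correction for transcript length and GC content, and without WT chow 1 and 2. That last fit was chosen after seeing the data. It leaves WT chow 3 as the only library of its group, so a call lost there does not show that a change is absent.

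The calls among these genes were for diet, and none was for genotype. Averaged over the genotypes, 5 of the 10 were lower on HFD and none was higher: Plcg1, Dgkd, Plcl2, Lpin1 and Plcb2. Over all genes 30.2% were called in this comparison, and 15.3% were called lower. The median log2 fold change (HFD against chow) was -0.32 over the 10 genes and -0.03 over all genes. After the length and GC correction the 10 genes' median was -0.11, with 3 called lower and Dgkz called higher, against 23.7% of all genes called. Without WT chow 1 and 2, a single gene, Plcg1, was called, and over all genes the share called was then 1.64%. Of all calls 49.3% were higher, and 38.1% when scaled by library totals. Because these are bulk samples, less RNA per cell and fewer cells of a type cannot be told apart.

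**Figure D1:**
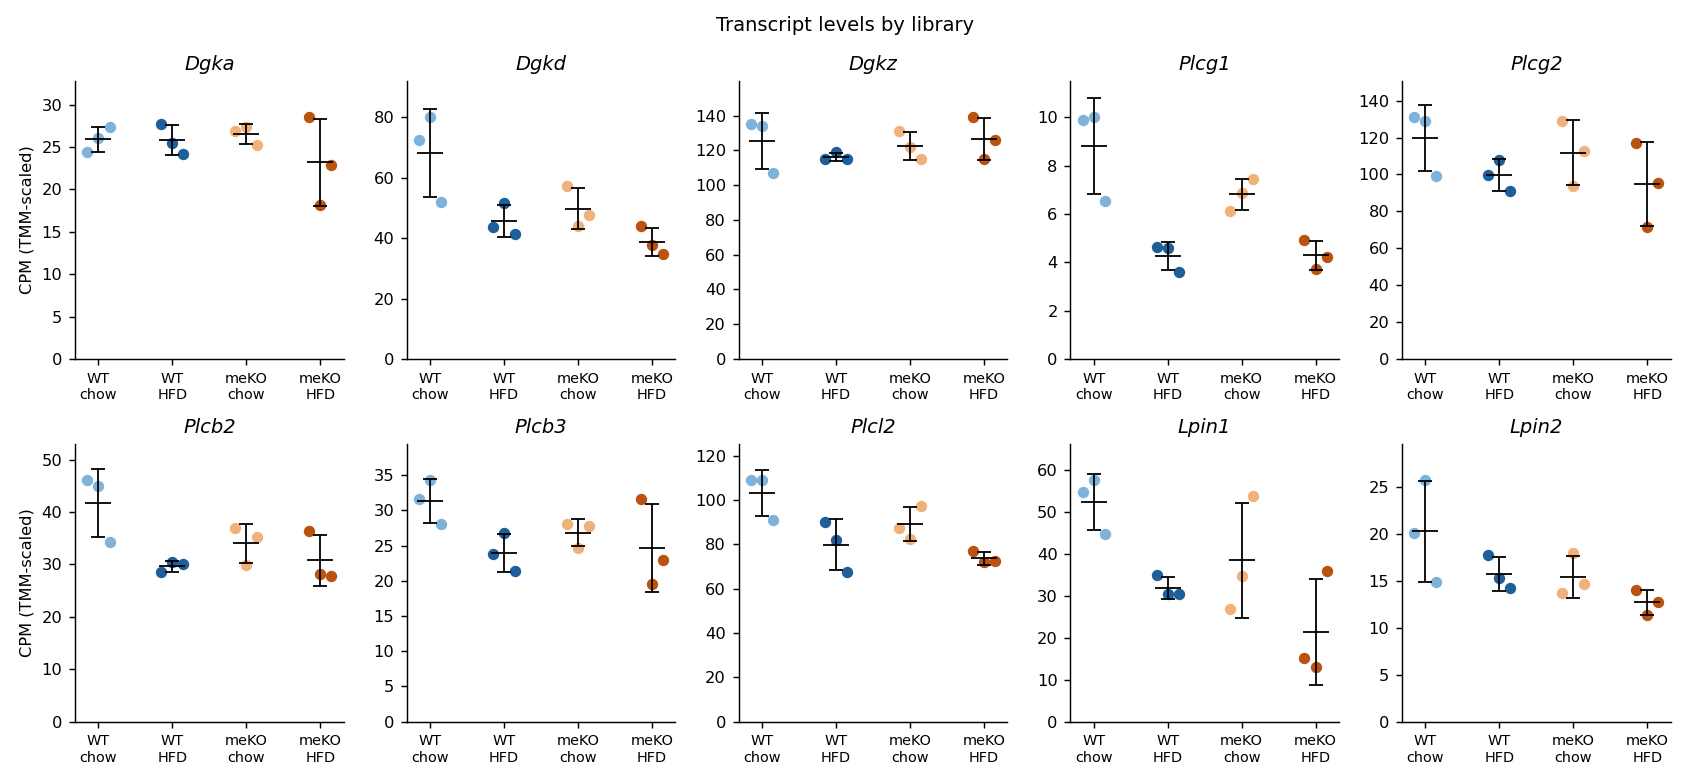
CPM (TMM-scaled, linear axis from 0) of each gene in the 12 libraries, by group, with points for libraries and bars for the mean ± SD of 3. Plcg1 is the gene whose 6 HFD libraries (3.61 to 4.92 CPM) all lie below its 6 chow libraries (6.13 to 10 CPM).

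The phospholipases C come first. Plcg1 encodes the gamma isoform that tyrosine kinases switch on in most cell types. It fell most clearly on HFD. Its level was 9.9, 10 and 6.54 CPM in WT chow 1 to 3 and 4.63, 4.58 and 3.61 CPM in WT HFD 1 to 3. In meKO it was 6.13, 6.87 and 7.43 CPM on chow and 4.92, 3.74 and 4.21 CPM on HFD. Every HFD library lay below every chow library, in both genotypes, and WT chow 1 and 2 were the highest of all. No other gene of the 10 separated the diets in this way; 2.77% of all genes did so in this direction. The log2 fold change averaged over genotypes was -0.85 ± 0.14 (SE), or 0.553 times the chow level (edgeR adjusted p = 0.00347). Plcg1 was called under each of the 19 alternatives, with adjusted p from 9.35e-07 to 0.0485. After the length and GC correction WT chow stood at 7.63, 7.52 and 6.65 CPM and WT HFD at 5.02, 4.67 and 4.26 CPM. The meKO libraries then stood at 5.87, 7.51 and 7.64 CPM on chow and 4.98, 4.53 and 4.78 CPM on HFD. The diets still did not overlap, and the change was -0.61 ± 0.10 (edgeR adjusted p = 0.00343).

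The 250 bases before the RefSeq start of Plcg1, the clearest change among the diacylglycerol makers, and of Dgkd, the clearest among the kinases, are shown because both genes fell together on HFD. Letters are 5′ to 3′ on the gene's strand (plus for both) in GRCm38.p6, and capitals mark matches on either strand to the CCAAT box (CCAAT) or the GC box (GGGCGG).
Plcg1, chr2:160731060-160731309: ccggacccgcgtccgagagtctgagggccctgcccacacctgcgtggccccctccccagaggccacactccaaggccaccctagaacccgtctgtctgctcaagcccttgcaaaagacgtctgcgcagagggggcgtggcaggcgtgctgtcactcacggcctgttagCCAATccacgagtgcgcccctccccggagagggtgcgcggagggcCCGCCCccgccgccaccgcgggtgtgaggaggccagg
Dgkd, chr1:87853037-87853286: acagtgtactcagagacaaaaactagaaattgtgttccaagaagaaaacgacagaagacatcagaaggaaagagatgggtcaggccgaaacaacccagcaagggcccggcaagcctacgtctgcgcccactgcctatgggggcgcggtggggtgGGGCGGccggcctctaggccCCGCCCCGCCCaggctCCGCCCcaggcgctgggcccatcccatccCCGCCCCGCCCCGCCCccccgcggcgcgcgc
The Plcg1 window held 1 CCAAT box and 1 GC box. The Dgkd window held 7 GC boxes, some overlapping each other, and no CCAAT box. Neither held the sterol regulatory element searched (TCACNCCAC), nor did the windows of the other 7 genes in the promoter table, which has no Plcl2. Over all 32851 promoter windows of this length 33.8% held CCAAT, 32.7% held GGGCGG and 1.05% held TCACNCCAC. These are letter matches, not measured binding, and the Dgkd window ends just inside the annotated gene because the transcript it belongs to starts there.

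Plcg2 is the gamma isoform of blood cells, used by Fc receptors and C-type lectin receptors. Its level ran from 71.8 CPM in meKO HFD 2 to 131 CPM in WT chow 1, and the diets overlapped in both genotypes. Its averaged change was -0.25 ± 0.12 with an edgeR adjusted p of 0.129, -0.04 after the length and GC correction and -0.12 without WT chow 1 and 2. It passed under 2 of 19 alternatives, among them without meKO HFD 1 (edgeR adjusted p = 0.0344). In that fit 35.8% of all genes were called.

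Plcb2 and Plcb3 are the beta isoforms that G protein-coupled receptors switch on. Plcb2 stood at 46.1, 44.9 and 34.3 CPM in WT chow and at 28.5, 30.4 and 30.0 CPM in WT HFD. In meKO it stood at 37.0, 29.9 and 35.3 CPM on chow and 36.4, 28.2 and 27.8 CPM on HFD. The diets separated in WT and overlapped in meKO, where HFD 1 was nearly as high as the highest meKO chow library. Plcb2 fell by 0.32 ± 0.10 on the log2 scale averaged over genotypes (edgeR adjusted p = 0.0309). That call is weak. It was lost after the length and GC correction (-0.07, edgeR adjusted p = 0.403) and without both WT chow 1 and 2 (0.339). It was also lost when any of 8 libraries was left out singly. The edgeR adjusted p was then 0.0853 without WT chow 1, 0.0726 without WT chow 2, 0.0652 without WT HFD 1 and 0.0647 without WT HFD 3. Among meKO libraries it was 0.0677 without chow 1, 0.0707 without chow 3, 0.0733 without HFD 2 and 0.0747 without HFD 3. In these 8 fits 15.9% to 24.4% of all genes were called, against 30.2% in the main fit. Plcb3 ran from 19.5 to 34.3 CPM over the 12 libraries. Its averaged change was -0.25 ± 0.11 (edgeR adjusted p = 0.104), 0.00 after the correction and -0.18 without WT chow 1 and 2. It passed under 2 of 19 alternatives, among them without meKO HFD 1 (edgeR adjusted p = 0.0118). In that fit 35.8% of all genes were called.

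Plcl2 encodes a phospholipase C-like protein that binds inositol phosphates but lacks lipase activity, so it makes no diacylglycerol itself. Its level was 109, 109 and 91.1 CPM in WT chow and 90.2, 82.1 and 67.4 CPM in WT HFD. In meKO it was 87.5, 82.3 and 97.3 CPM on chow and 77.1, 71.8 and 72.3 CPM on HFD. Within each genotype the HFD libraries lay below the chow libraries, although WT HFD 1 overlapped the meKO chow range. Plcl2 fell by 0.32 ± 0.09 on the log2 scale (edgeR adjusted p = 0.0174), to 0.802 times the chow level. The length and GC correction left the fall at -0.28 ± 0.08 (edgeR adjusted p = 0.0235). Its edgeR adjusted p was 0.0505 without WT chow 1, 0.0506 without meKO chow 3 and 0.195 without both WT chow 1 and 2.

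**Figure D2:**
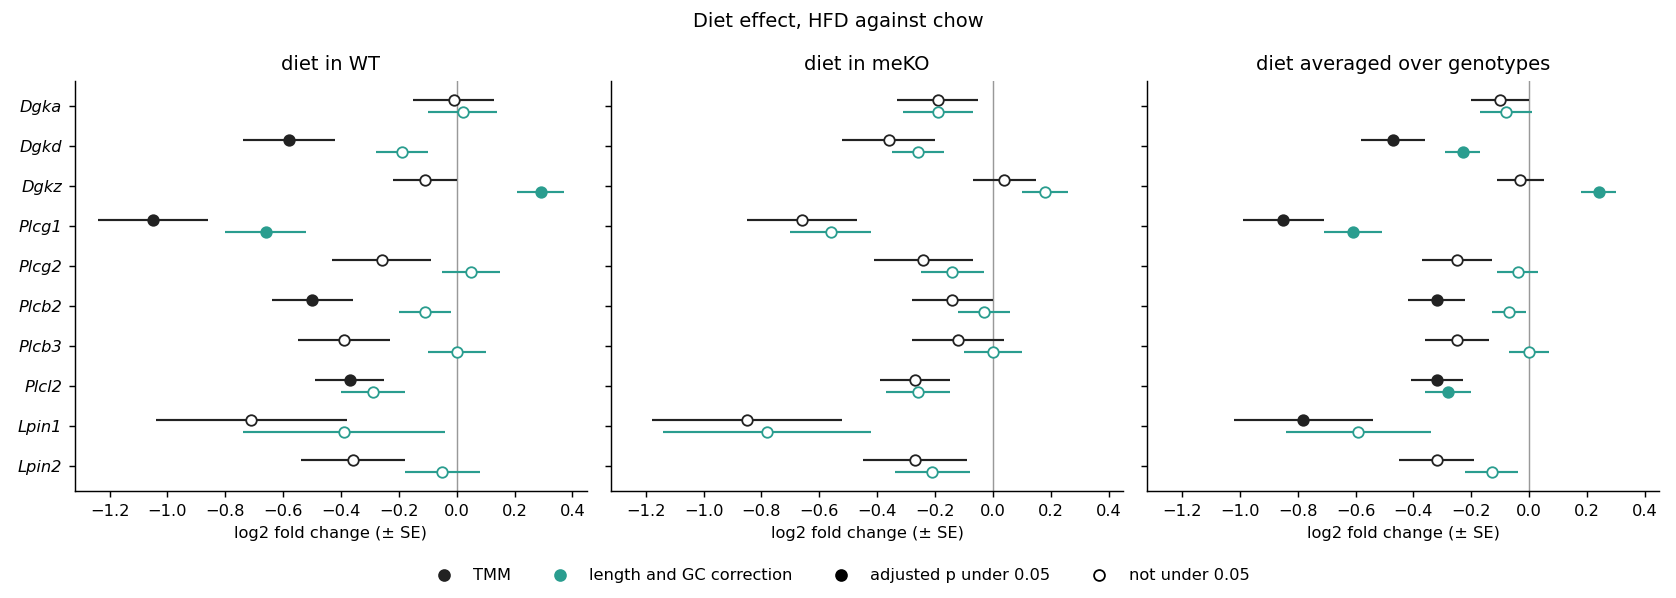
Log2 fold change of HFD against chow (± SE) for each gene, in WT, in meKO and averaged over genotypes, with TMM scaling (dark) and after the length and GC correction (green). Filled points have an edgeR adjusted p under 0.05: averaged over genotypes, 5 genes lower with TMM, and after the correction Plcg1, Dgkd and Plcl2 lower and Dgkz higher.

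The lipins convert phosphatidate to diacylglycerol, and lipin 1 also acts in the nucleus as a partner of transcription factors. Lpin1 stood at 54.9, 57.7 and 44.9 CPM in WT chow and at 35.0, 30.4 and 30.6 CPM in WT HFD. In meKO it stood at 26.9, 34.8 and 53.8 CPM on chow and 15.2, 13 and 35.9 CPM on HFD. WT separated by diet without overlap. In meKO the libraries were spread widely, with chow 3 and HFD 3 far above the other libraries of their groups. Lpin1 fell by 0.78 ± 0.24 on the log2 scale averaged over genotypes (edgeR adjusted p = 0.0282), to 0.582 times the chow level. The correction left -0.59 ± 0.25 with an edgeR adjusted p of 0.115, and without both WT chow 1 and 2 the p was 0.252. Lpin1 held its call under 9 of 19 alternatives, and lost it without any of 7 single libraries. Left out one at a time, the edgeR adjusted p was 0.0633 (WT chow 1), 0.073 (WT chow 2), 0.0528 (WT HFD 2), 0.068 (WT HFD 3), 0.063 (meKO chow 3), 0.0539 (meKO HFD 1) and 0.0619 (meKO HFD 2). In these 7 fits 15.9% to 35.8% of all genes were called, against 30.2% in the main fit. Lpin2, the other lipin measured, ran from 11.4 CPM in meKO HFD 2 to 25.7 CPM in WT chow 2. Its averaged change was -0.32 ± 0.13 (edgeR adjusted p = 0.0751), -0.13 after the correction and -0.10 without WT chow 1 and 2. It passed under 2 of 19 alternatives, among them without WT chow 3 (edgeR adjusted p = 0.00936). In that fit 43.2% of all genes were called.

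Of the diacylglycerol kinases, Dgkd encodes the delta isoform, which takes diacylglycerol from protein kinase C at the plasma membrane and endosomes. Its level was 72.5, 80 and 52.1 CPM in WT chow and 43.8, 51.5 and 41.5 CPM in WT HFD. In meKO it was 57.2, 44.0 and 47.8 CPM on chow and 43.9, 37.6 and 34.7 CPM on HFD. The diets did not overlap within either genotype, and WT chow 1 and 2 were again the highest. Dgkd fell by 0.47 ± 0.11 on the log2 scale averaged over genotypes (edgeR adjusted p = 0.0122), to 0.722 times the chow level. After the length and GC correction WT chow stood at 55.4, 58.2 and 53.1 CPM and WT HFD at 46.3, 51.9 and 47.5 CPM, and the averaged change was -0.23 ± 0.06 (edgeR adjusted p = 0.021). Leaving out any single library kept the call, with a highest p of 0.037, and leaving out both WT chow 1 and 2 gave 0.18.

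Dgkz encodes the zeta isoform, a brake on diacylglycerol signalling in lymphocytes and macrophages, and Dgka the calcium-regulated alpha isoform. Dgkz stood at 135, 134 and 107 CPM in WT chow and 115, 119 and 115 CPM in WT HFD. In meKO it stood at 131, 122 and 115 CPM on chow and 139, 115 and 126 CPM on HFD. These ranges overlapped, and the averaged change was -0.03 ± 0.08 with TMM scaling (edgeR adjusted p = 0.782). After the length and GC correction the direction turned, with 103, 103 and 105 CPM in WT chow against 126, 119 and 137 CPM in WT HFD, and 118, 134 and 117 CPM in meKO chow against 133, 144 and 141 CPM in meKO HFD. The corrected change was 0.24 ± 0.06 (edgeR adjusted p = 0.0128). Without both WT chow 1 and 2 it was 0.08 (edgeR adjusted p = 0.596), and the correction was the one alternative of 19 to call Dgkz. Dgka ran from 18.2 CPM in meKO HFD 2 to 28.5 CPM in meKO HFD 1, and its averaged change was -0.10 ± 0.10 (edgeR adjusted p = 0.465), -0.08 after the correction and -0.14 without WT chow 1 and 2.

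**Figure D3:**
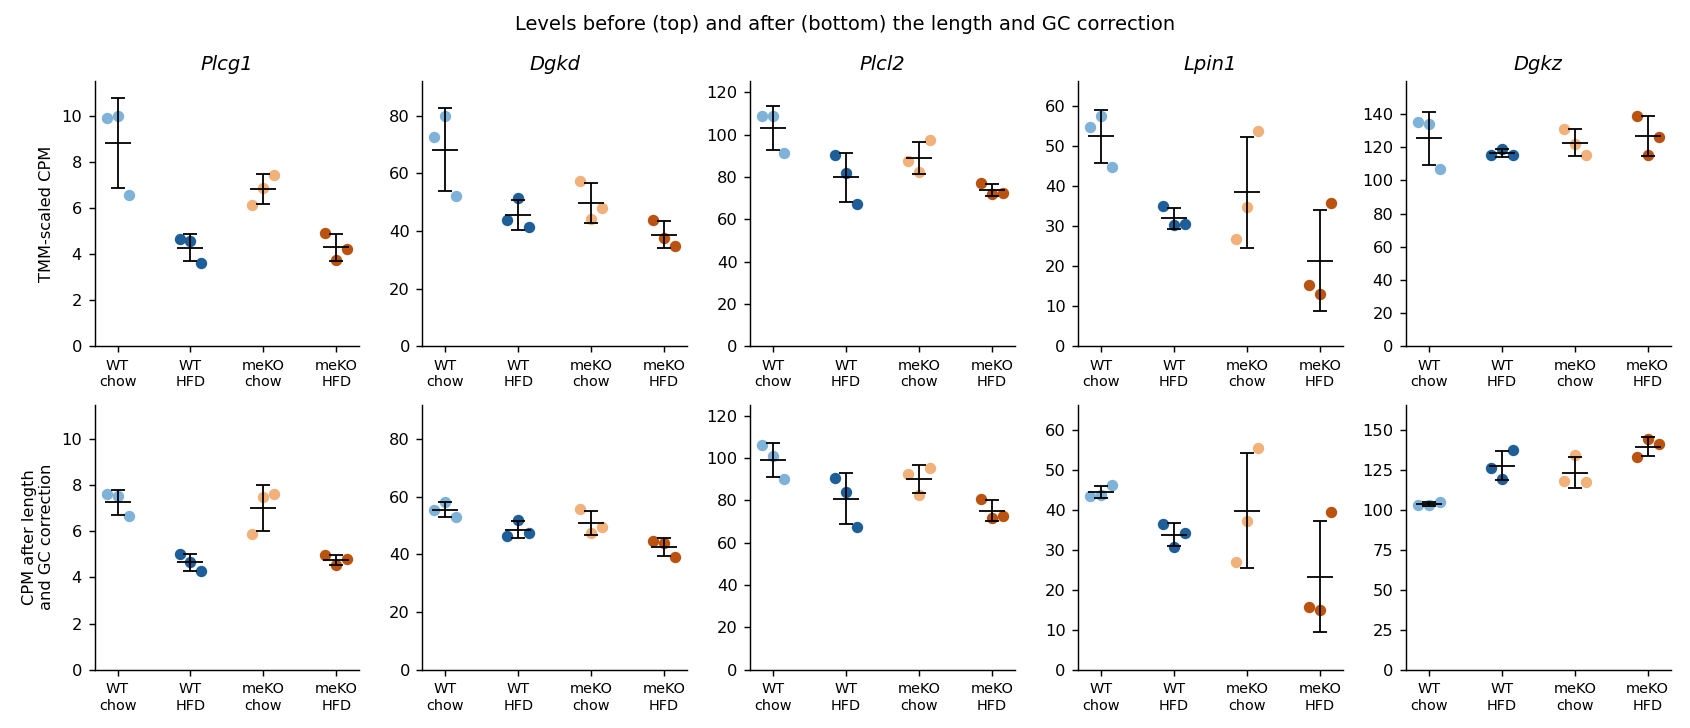
CPM of Plcg1, Dgkd, Plcl2, Lpin1 and Dgkz by group with TMM scaling (top row) and after the length and GC correction (bottom row), with points for libraries and bars for the mean ± SD of 3. In WT chow the 3 libraries draw together after the correction, as for Dgkz from 107 to 135 CPM to 103 to 105 CPM, and Dgkz alone turns from -0.03 to 0.24 on the log2 scale (diets averaged over genotypes).

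Taken genotype by genotype, the diet comparison asked whether these genes differed between HFD and chow within WT and within meKO. In WT 4 of the 10 genes were called, all lower on HFD, against 21.3% of all genes called and 11.8% called lower. Of all calls 44.5% were higher with TMM, 31.3% with library totals and 57.0% after the length and GC correction. The called genes were Plcg1 (-1.05 ± 0.19, edgeR adjusted p = 0.00885), Dgkd (-0.58 ± 0.16, 0.0276), Plcb2 (-0.50 ± 0.14, 0.0301) and Plcl2 (-0.37 ± 0.12, 0.0478). With TMM scaling the WT diets did not overlap in 6 genes, all with HFD lower (these 4, Plcb3 and Lpin1), as for 19.9% of all genes. With the length and GC correction Plcb2, Plcb3 and Plcl2 overlapped. Plcg1, Dgkd and Lpin1 stayed apart with HFD lower, and Dgkz came apart with HFD higher. After the correction 2 were called, Plcg1 lower (-0.66 ± 0.14, edgeR adjusted p = 0.0156) and Dgkz higher (0.29 ± 0.08, 0.0332), against 12.9% of all genes called. Without both WT chow 1 and 2 a single library stood for WT chow, so calls in that fit are not weighed here. Plcg1 then stood at -0.62.

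Leaving out a single WT library changed the WT calls, and the share called over all genes fell in the same fits. None of the 10 was called without WT chow 1 (1.05% of all genes called) or without WT HFD 3 (0.778%). A single gene was called without WT chow 2 (2.59% of all genes) or without WT HFD 1 (3.73%), and 2 were called without WT HFD 2 (13.6%). Plcg1 had an edgeR adjusted p of 0.0537 without WT chow 1 and 0.0632 without WT HFD 3. Dgkd had 0.118 without WT chow 1, 0.122 without WT chow 2, 0.081 without WT HFD 1 and 0.121 without WT HFD 3. Plcb2 had 0.142, 0.114, 0.0878 and 0.108 without the same libraries, and 0.0589 without WT HFD 2. Plcl2 kept its call in 3 of 12 fits that left out a library. Its edgeR adjusted p was 0.19 and 0.165 without WT chow 1 and 2, and 0.0603, 0.0847 and 0.211 without WT HFD 1, 2 and 3. It was 0.0645, 0.0593 and 0.0526 without meKO chow 1, 2 and 3 and 0.0681 without meKO HFD 3. Another 3 genes gained a call instead: Plcb3 without meKO HFD 1 (0.0409), Lpin1 without meKO HFD 3 (0.0386) and Lpin2 without WT chow 3 (0.018). In those fits 24.3%, 17.1% and 39.9% of all genes were called, in that order.

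In meKO no gene of the 10 was called for diet by edgeR (0.105% of all genes called) or by DESeq2 (1.83%). Of the 10, 4 had an unadjusted p under 0.05, as did 15.9% of all genes. The values for the same genes were Plcg1 -0.66 ± 0.19 (edgeR adjusted p = 0.182), Dgkd -0.36 ± 0.16 (0.306), Plcl2 -0.27 ± 0.12 (0.304) and Lpin1 -0.85 ± 0.33 (0.276). Plcg1, Dgkd and Plcl2 had non-overlapping diets with HFD lower, as 9.38% of all genes did. A call in WT and none in meKO does not make the diet effects different. The interaction term, which tests that difference, called none of the 10 (0.0162% of all genes), and none reached an unadjusted p under 0.05. The interaction log2 values ran from -0.18 for Dgka to 0.39 ± 0.27 for Plcg1, whose value was 0.09 after the correction and -0.05 without WT chow 1 and 2. DESeq2 called none of the 10 either.

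The comparison of genotypes asked whether loss of Prkce goes with a change in the enzymes that set its lipid activator. On chow none of the 10 was called, against 0.081% of all genes, with edgeR adjusted p from 0.162 to 0.911. DESeq2 called none, and 2 had an unadjusted p under 0.05 (Dgkd and Lpin2), as did 19.8% of all genes. The log2 fold changes (meKO against WT) ran from -0.46 ± 0.16 for Dgkd to 0.03 for Dgka, with a median of -0.26 over the 10 genes and 0.00 over all genes. After the length and GC correction the median was -0.03 and Dgkd stood at -0.12 ± 0.09. Plcb3 was the gene whose genotypes did not overlap on chow, by a margin below the third digit of 28.1 CPM, as for 8.28% of all genes in that direction. Leaving out WT chow 3, the WT chow library without the length trend, made 4 calls: Dgkd (edgeR adjusted p = 0.0138), Lpin2 (0.0292), Plcg1 (0.0416) and Plcb2 (0.0463). In that fit 20.6% of all genes were called. Limma-voom with quality weights, which gave WT chow 3 a weight of 0.222, called 5 of the 10 and 33.0% of all genes.

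On HFD no gene of the 10 was called between genotypes (0.081% of all genes), each edgeR adjusted p was 0.999, and none had an unadjusted p under 0.05 or was called by DESeq2. Lpin1 had the widest value, -0.59 ± 0.33. Lpin2 was 17.7, 15.3 and 14.2 CPM in WT and 14, 11.4 and 12.7 CPM in meKO on that diet. Its genotypes did not overlap there, as for 4.85% of all genes, and its value was -0.30 ± 0.18. Averaged over the diets none was called by edgeR (0.17% of all genes) or DESeq2, and 3 had an unadjusted p under 0.05, as did 17.7% of all genes. Without WT chow 3 Dgkd (0.0181) and Lpin2 (0.0253) were called in that average, with 11.3% of all genes called. Voom with quality weights called 5 of the 10 and 31.1% of all genes.

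**Figure D4:**
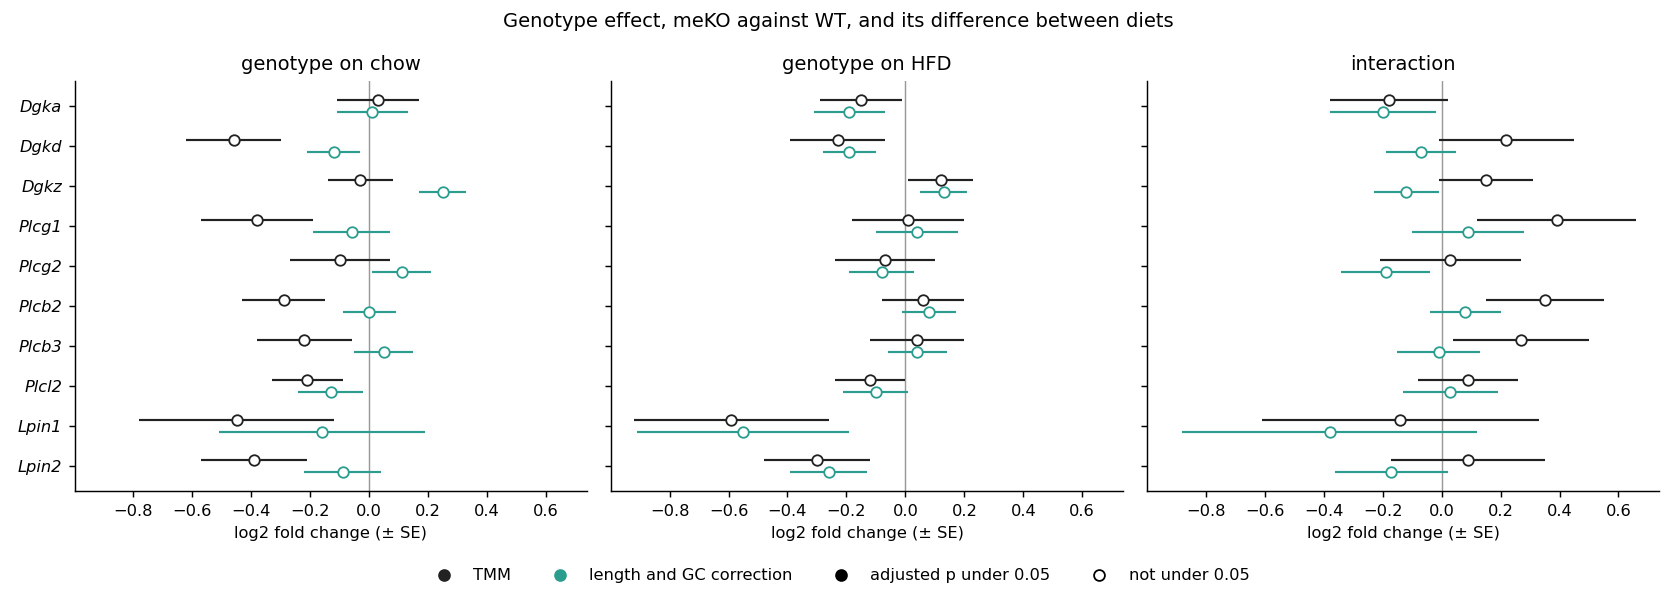
Log2 fold change of meKO against WT (± SE) on chow and on HFD, and the interaction (the HFD value minus the chow value), with TMM scaling (dark) and after the length and GC correction (green). All points are open (edgeR adjusted p of 0.05 or more), and Dgkz, Plcg2 and Plcb3 change sign on chow between the scalings.

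Per length of transcript the 10 genes differed widely. Mean CPM per kilobase over the 12 libraries was 29.5 ± 2.42 (SD) for Dgkz, 24.8 ± 4.19 for Plcg2 and 19.5 ± 3.09 for Plcl2. Dgka (8.95 ± 0.987), Dgkd (8.88 ± 2.39), Plcb2 (6.62 ± 1.22), Lpin1 (6.47 ± 2.61) and Plcb3 (5.86 ± 0.979) formed a middle range. Lpin2 (2.84 ± 0.689) and Plcg1 (1.18 ± 0.432) were lowest. In 3 places neighbours in that order did not separate: Dgka was above Dgkd in 7 of 12 libraries, Plcb2 above Lpin1 in 5 and Lpin1 above Plcb3 in 8. Each other neighbour pair kept its order in all 12. The lipase-inactive Plcl2 therefore stood above every active phospholipase C measured here except Plcg2.

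Within the families, on the same per-kilobase scale, Dgkz made up 54.7 to 64.8% of the 7 diacylglycerol kinases measured. Dgkd made up 21.8 ± 2.19% (SD, n = 3) of them in WT on chow and 16.8 ± 1.35% on HFD, and 17.4 ± 1.56% and 14.3 ± 1.2% in meKO. Within each genotype its share was lower on HFD in every library, as its level was. Plcg1 made up 5.8 ± 0.473% of the 2 gamma isoforms in WT chow and 3.47 ± 0.262% in WT HFD, and 4.97 ± 1.01% and 3.73 ± 0.41% in meKO. The meKO shares overlapped between diets. Lpin1 made up 52.3 to 78.8% of the 2 lipins, with the lowest share in meKO HFD.

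**Figure D5:**
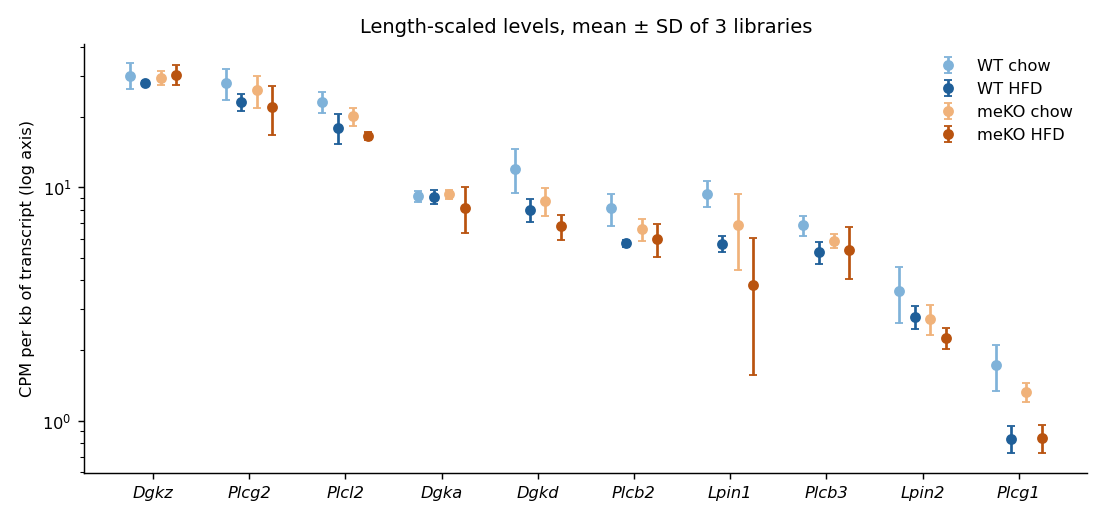
CPM per kilobase of transcript (log axis) for the 10 genes in order of their mean over 12 libraries, with points and bars for the mean ± SD of 3 libraries in each group. Dgkz, Plcg2 and Plcl2 are highest and Plcg1 is lowest in each group.

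Of 110 other genes of diacylglycerol metabolism and signalling listed, 89 were measured, and averaged over genotypes 8 were higher and 15 lower on HFD (7 and 8 after the length and GC correction). The 89 were called at 25.8%, against 30.2% of all genes, at 16.9% against 23.7% after the correction, and at 0% against 1.64% without WT chow 1 and 2. The counts by list that follow are read against these shares. EdgeR called none of the 89 between genotypes on chow, between genotypes on HFD, in the interaction or for diet in meKO. Their unadjusted p was under 0.05 for 20, 7, 6 and 11 genes in that order, and DESeq2 called 10, 1, 0 and 1. Over all genes the unadjusted shares were 19.8%, 4.56%, 6.13% and 15.9%. DESeq2 called 4.56%, 0.43%, 0.122% and 1.83% of all genes there, against 11.2%, 1.12%, 0% and 1.12% of the 89. Averaged over diets edgeR called 1 for genotype, Rasgrp3 (1.12%, against 0.17% of all genes). DESeq2 called 8 in that average (8.99%, against 2.97% of all genes). None of the 5 other phospholipases C or the 4 other diacylglycerol kinases measured was called for diet. Among 12 genes of phosphoinositide supply, 3 were lower. Pip5k1c and Pip5k1a make the phosphoinositide that phospholipase C cuts. Pip5k1c fell from 133 ± 28.1 CPM (SD, n = 3) in WT chow to 71.9 ± 10.7 CPM in WT HFD, and from 84.6 ± 6.59 to 64.0 ± 10.4 CPM in meKO, with an averaged change of -0.65 ± 0.12 (edgeR adjusted p = 0.00467), and -0.37 after the correction (0.00407). Pip5k1a had -0.51 ± 0.11 (edgeR adjusted p = 0.00974), and -0.42 after the correction (0.0102).

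Among 17 genes whose proteins bind diacylglycerol, 5 were lower and none higher. Rasgrp3, a Ras activator recruited by diacylglycerol, fell by 0.66 ± 0.13 on the log2 scale (edgeR adjusted p = 0.00585), from 28.7 ± 1.5 to 19.3 ± 1.76 CPM in WT and from 17.8 ± 4.39 to 10.6 ± 2.19 CPM in meKO. After the correction its diet change was -0.58 (edgeR adjusted p = 0.00911). Rasgrp3 was also lower in meKO than in WT averaged over diets, by a log2 value of -0.77 ± 0.13 (edgeR adjusted p = 0.028; -0.70 and 0.0437 after the correction). That genotype call was lost without both WT chow 1 and 2 (0.207) and without any of 7 single libraries. The edgeR adjusted p of Rasgrp3 was then 0.0703 (WT chow 2), 0.106, 0.0655 and 0.0824 (WT HFD 1 to 3), 0.0517 and 0.0757 (meKO chow 2 and 3) and 0.0575 (meKO HFD 3). In these 7 fits 0.0648% to 0.138% of all genes were called, against 0.17% in the main fit. Rasgrp4, of the same family, had a diet change of -0.56 ± 0.12 (edgeR adjusted p = 0.00782; -0.32 and 0.0344 after the correction). The kinase gene Prkd2 had -0.53 ± 0.14 (edgeR adjusted p = 0.0162; -0.34 and 0.0482 after the correction). In the inositol trisphosphate branch, 1 of 9 was higher and 2 lower. Itpr1, the calcium channel that inositol trisphosphate opens, had -0.41 ± 0.11 (edgeR adjusted p = 0.017, and 0.25 after the correction). Impa1, an inositol monophosphatase, had 0.33 ± 0.09 (0.0145).

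Of 11 genes listed as activators of phospholipase C, 4 were higher and 1 lower, and whether each activates it in these cells was not tested. The adaptor Lat2 rose by 0.42 ± 0.11 (edgeR adjusted p = 0.0163) and Gnaq, the G protein subunit that switches on beta isoforms, had -0.28 ± 0.08 (0.0168, and 0.0789 after the correction). Among 13 diacylglycerol acyltransferases, lipases and phospholipid-forming transferases, 1 was higher and 2 lower. Mgll, which breaks down monoacylglycerol, had -0.77 ± 0.20 (edgeR adjusted p = 0.0158, and 0.118 after the correction). Of 9 other phosphatidate phosphatases, phospholipases D and lipin activators 1 was higher and 2 lower, with a median of 0.13, and Plpp6 had -0.40 ± 0.11 (0.0172, and 0.05 without meKO chow 3). Of 9 phosphatidate makers 1, Agpat2, was higher (0.24 ± 0.08, edgeR adjusted p = 0.0425, and 0.411 after the correction). Without WT chow 1 and 2 none of the genes named from these lists was called for diet. Plpp5, Pld1, Cept1, Pnpla2, Agpat2, Cds1, Itpkb and Blnk held their calls under 5 to 10 of 19 alternatives.

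The genes whose log2 CPM followed the 3 clearest changes most closely over the 12 libraries, among 11499 genes, are given as a description. For Plcg1 they were Sft2d2 (Pearson's r 0.98), Mertk (0.977) and Sort1 (0.975). For Dgkd they were Abl1 (0.986), Anks1 (0.985) and Brd3 (0.982). For Plcl2 they were Nipal3 (0.983), Josd1 (0.98) and Ddhd1 (0.978). All of these pairs share the libraries, their depth and the length trend of WT chow 1 and 2.

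Defining macrophage markers were present in every library, with 6 of 6 measured and 4800 to 6120 CPM in sum, and 4 of these 6 were lower and 1 higher on HFD averaged over genotypes. The share over all genes in that comparison was 30.2% called and 15.3% called lower. Some markers of other cells were called for diet too. The 7 B cell markers measured of 8 (Pax5 is not among the listed genes) summed to 98.4 to 165 CPM on chow and 82.5 to 147 CPM on HFD, and 5 were called lower. The 6 dendritic cell markers summed to 22.1 to 46.7 CPM on chow and 15.9 to 35.8 CPM on HFD, with 2 lower. The 6 mesothelial and stromal markers summed to 41.5 to 76.2 CPM on chow and 71.7 to 112 CPM on HFD, with 2 higher. Of 6 neutrophil markers 2 were higher and 2 lower, and of 6 resident large peritoneal macrophage markers 1 was higher and 1 lower. Of 3 eosinophil markers 1 was lower, and no mast cell or T and NK cell marker was called. The part of these cells in the changes of the 10 genes was not tested.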

How the data were processed

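The values are raw counts per gene, deposited by the authors as 1 table for 12 libraries with Entrez identifiers and symbols. Per the submitters' processing notes the build was mm10 and DESeq2 was used; the aligner, counter and strand setting are not given in the sources used here, so reads of overlapping or antisense genes cannot be told apart. Per the labels' protocols, RNA was taken with Trizol and libraries followed the TruSeq protocol. All count columns were matched by sample title. No pair of replicates agreed within sampling noise (chi-square per degree of freedom of at least 16.9). Rows without a symbol (186, with 0.44% of counts) name a gene by Entrez identifier and stayed in the fit.

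The main test used edgeR 4.0.16 (R 4.3.3), with TMM factors, filterByExpr (which removed none of the 12339 genes), robust quasi-likelihood F tests (two-sided) on 4 group means over all 12 libraries, Benjamini-Hochberg adjustment over all genes. An exact test of 3 libraries against 3 cannot go below p = 0.1, so genes rest on this shared fit. Prkce was compared with an exact permutation test. The SE of a log2 fold change is its size over the root of F. As alternatives, library totals and median-of-ratios factors replaced TMM; DESeq2 1.42.0, voom with quality weights (limma 3.58.1), no filter, only the groups compared, a per-library loess offset (span 0.3) on transcript length and GC (GENCODE M21 transcripts, found for 93.5% of genes), each library left out, and WT chow 1 and 2 left out were also run.

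Promoters come from RefSeq (GRCm38.p6), which matched 9 of the 10 genes. Named from the other lists were up to 3 genes per list with the smallest p for diet averaged over genotypes, and from all genes, for the 3 members with the smallest such p, the 3 genes of highest Pearson's r (log2 CPM, prior count 2) with at least 1 CPM on average. The members and lists were chosen with earlier results of these data known.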

Additional observations from a re-analysis of the deposited data

How the results depend on the processing

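No paired analysis was possible because replicate numbers follow accession order and pair nothing. The filter removed no gene, so the fit without it gave the same values. Plcg1 on diet averaged over genotypes kept its direction and call under all 19 alternatives. Depth limits Plcg1 most, with 98 to 350 reads per library. Causes of the changes below were not tested.

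Members called moved as follows. Voom with quality weights called 5 for genotype on chow, 5 for genotype averaged, 7 for diet in WT and 1 (Plcg1) for diet in meKO. Over all genes voom called 33.0%, 31.1%, 51.7% and 4.23%, in that order. The length and GC correction called 2 for diet in WT, and leaving out WT chow 1 and 2 (added after seeing the data) called 0 there and 1 for diet averaged. With single libraries left out the members called ran from 2 to 6 for diet averaged, 0 to 5 for diet in WT, 0 to 4 for genotype on chow and 0 to 2 for genotype averaged. The shares over all genes then ran from 15.9% to 43.2%, 0.778% to 39.9%, 0.0162% to 20.6% and 0.0648% to 11.3%, in that order.

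Genes called over the whole table moved more. For genotype on chow (10) they were 2 with library totals, 563 with DESeq2, 4078 with voom, 5 with only the groups compared, 4 corrected, 3 without WT chow 1 and 2, and 2 to 2543 with single libraries left out. For genotype on HFD (10) they were 53 with DESeq2, 144 with voom, 34 with only the groups compared, 16 without WT chow 1 and 2, and 3 to 16 with libraries left out. For diet in WT (2634) they were 6384 with voom, 1596 corrected, 15 without WT chow 1 and 2, and 96 to 4921 with libraries left out. For diet in meKO (13) they were 226 with DESeq2, 522 with voom, 1 with only the groups compared, 35 corrected, and 1 to 135 with libraries left out. For the interaction (2) they were 15 with DESeq2, 393 with voom, 5 corrected, and 1 to 56 with libraries left out. For genotype averaged (21) they were 366 with DESeq2, 3843 with voom, 11 without WT chow 1 and 2, and 8 to 1400 with libraries left out. For diet averaged (3721) they were 6264 with voom, 202 without WT chow 1 and 2, and 1957 to 5326 with libraries left out. The Prkce difference between genotypes stayed between -1.25 and -1.03 under the scalings and with single libraries left out. It was -0.91 after the correction and -0.86 without WT chow 1 and 2, both added after seeing the data.

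Log2 values that changed sign were those of genes not called with TMM. The correction turned Dgkz to 0.25, Plcg2 to 0.11 and Plcb3 to 0.05 for genotype on chow. It turned Dgkz to 0.29, Plcg2 to 0.05 and Dgka to 0.02 for diet in WT. It turned Dgkz to 0.24, Dgke to 0.12 and Dgkh to 0.20 for diet averaged. It turned Plcg2 to 0.01, Plcb2 to 0.04 and Plcb3 to 0.05 for genotype averaged. It turned Dgkd to -0.07, Dgkz to -0.12, Plcg2 to -0.19, Plcb3 to -0.01 and Lpin2 to -0.17 in the interaction. Without WT chow 1 and 2, genotype on chow was -0.04 for Dgka, 0.20 for Dgkz, 0.06 for Plcg1, 0.17 for Plcg2 and 0.05 for Lpin2. Diet in WT was then 0.12 for Dgkz, 0.01 for Plcg2 and 0.08 for Lpin2, and diet averaged was 0.08 for Dgkz, 0.06 for Dgke, 0.26 for Dgkh and 0.09 for Prkce. Genotype averaged was then 0.03 for Plcg1, 0.05 for Plcg2 and 0.02 for Plcb2, and the interaction was -0.17 for Dgkd, -0.08 for Dgkz, -0.05 for Plcg1, -0.25 for Plcg2, -0.09 for Plcl2 and -0.36 for Lpin2. Library totals turned Dgka to -0.04 on chow and Plcg1 to -0.01 on HFD for genotype. Voom turned Plcg1 to -0.05, Plcb2 to -0.03 and Plcb3 to -0.05 for genotype on HFD, Dgka to 0.06 for diet in WT and Lpin1 to 0.41 in the interaction. Dgka for diet in WT was 0.01 with median-of-ratios factors and with DESeq2.

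With single libraries left out, genotype on chow reached 0.04 (without WT chow 1), 0.03 (WT chow 2) and 0.02 (meKO chow 3) for Dgkz and ran from -0.21 to 0.02 (meKO chow 2) for Plcg2. Genotype on HFD reached -0.11 (WT HFD 3) and -0.10 (meKO HFD 1) for Plcg1, 0.08 (meKO HFD 2) for Plcg2, -0.08 (meKO HFD 1) for Plcb2, and -0.04 (WT HFD 3) and -0.18 (meKO HFD 1) for Plcb3. Diet in WT ran from -0.06 to 0.05 (WT HFD 3), with 0.04 without WT chow 3, for Dgka. Diet in meKO reached -0.03 (meKO HFD 1) for Dgkz and -0.34 to 0.02 (meKO HFD 2) for Plcb3. The interaction reached -0.15 (meKO HFD 1), -0.10 (meKO chow 2), -0.05 (WT HFD 3), -0.07 (WT chow 1) and -0.04 (WT chow 2) for Plcg2, and -0.03 (WT HFD 3) for Plcl2. It ran from -0.74 to 0.18 (meKO chow 3), with 0.06 (meKO HFD 1) and 0.12 (meKO HFD 2) for Lpin1, and -0.14 (WT chow 2) and -0.01 (meKO chow 1) for Lpin2. Diet averaged reached 0.01 (WT chow 1), 0.05 (WT chow 2), 0.11 (meKO chow 1) and 0.02 (meKO HFD 1) for Dgkh.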
